A study of Mus musculus with 36 samples.

Results

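Complement is a set of proteins that mark targets for uptake and call in leukocytes. C1q, built of A, B and C chains, opens the classical pathway when it binds antibody or dying cells, C3 is the protein on which all routes converge, factor B and properdin drive the alternative pathway, and the receptors for the fragments C3a and C5a sit on myeloid cells. Tissue macrophages are a main source of C1q. Described here are 8 genes of this system out of the 24781 genes in the count table, chosen by name: *C1qa*, *C1qb*, *C1qc*, *C3*, *Cfb* (factor B), *Cfp* (properdin), *C3ar1* and *C5ar1*.

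The study asked how mice without B cells, and such mice given GABA, differ in the macrophages and T cells of a tumour. Each library held RNA from 100 cells sorted from an MC38 colon carcinoma on day 7 after inoculation, either tumour-associated macrophages (TAMs; CD45+CD11b+F4/80 high) or CD8+ T cells (CD45+TCRβ+CD8+). There were 6 libraries, each from its own mouse, in each of 3 groups per cell type, 36 in all. The groups were WT mice (C57BL/6J or C57BL/6N) and *muMt*-/- mice (C57BL/6J, without mature B cells through a germline mutation), both with placebo pellets in the study's methods and with no treatment in the labels, and *muMt*-/- mice with a GABA pellet, each pellet placed under the skin 1 day before the tumour cells. Mice of both sexes were 2 to 5 months old. Mice were littermates or matched for age and sex, and the substrain of each WT library is not given, so substrain and genotype cannot be told apart. The methods give 1 library per mouse, and no label links a TAM library to a CD8+ library.

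Depth, the number of distinct molecules counted per library, differed between groups. In TAMs it ranged from 206394 to 304100 (median 242756) in WT, from 100254 to 253608 (median 149960) in placebo-treated *muMt*-/- and from 151856 to 262606 (median 192775) in GABA-treated *muMt*-/- libraries. CD8+ T cell libraries held fewer molecules, 22896 to 76898 (median 42066) in WT, 51064 to 77839 (median 67122) in placebo-treated *muMt*-/- and 65356 to 98015 (median 80283) in GABA-treated *muMt*-/- mice. Among TAMs the WT libraries were thus the deepest by median, and among CD8+ T cells the shallowest.

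The sorted identity was visible in marker genes. All 16 macrophage markers were present in each TAM group, with *Apoe* the most abundant, and summed to a median of 12790 CPM (molecules per 1000000 molecules of the library) in WT TAMs. The 12 T cell markers summed to a median of 25.2 CPM in WT TAMs and to 5144 in WT CD8+ T cells. Of 6 B cell markers, *Cd79a* and *Pax5* had 0 molecules in all 6 groups, while *Blnk* and *Cd79b* were present in each TAM group and *Ms4a1* in GABA-treated *muMt*-/- TAMs. The list summed to medians of 52.4, 25.6 and 32.9 CPM in WT, placebo-treated and GABA-treated *muMt*-/- TAMs. In TAMs, the GABA-treated *muMt*-/- library 1 stood apart from the others of its group, with the lowest *C1qb*, *C1qc*, *C3*, *Cfb*, *Cfp* and *C5ar1* of the group. Its sum of macrophage markers was the smallest of all TAM libraries, 7296 CPM. Among CD8+ libraries, the placebo-treated *muMt*-/- library 1 stood apart with the largest sum of macrophage markers, 5069 CPM.

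All 8 genes were found in TAMs of every mouse. In WT mice, all were higher in TAMs than in CD8+ T cells (8 of 8 with adjusted p under 0.05 in edgeR, against 22.7% of 8477 genes tested), and for all 8 the lowest TAM library lay above the highest CD8+ library in CPM, which held for 9.83% of tested genes in this direction. The median log2 difference was 5.94 over the 8 genes, or 5.86 with *C5ar1* at the bound given below, and 0.36 over all genes tested. The WT CD8+ libraries held very few molecules of these genes, so counts pooled over the 6 libraries are given with 95% intervals (exact binomial) that cover counting error only. *C1qb* had 3328 molecules in TAMs and 11 in CD8+ T cells, a share of all molecules 54.2-fold higher in TAMs (30.2 to 109). *C1qa* (2698 and 4 molecules) and *C1qc* (3220 and 4 molecules) were 121-fold (47.1 to 443) and 144-fold (56.2 to 529) higher in TAMs. C1q transcripts were therefore close to the detection limit in WT T cells.

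The other 5 genes had from 0 to 4 molecules in the pooled WT CD8+ libraries. *C3* was 8.01-fold higher in TAMs (3.07 to 29.7) and *Cfb* 17.1-fold (6.62 to 63.1). All 4 *C3* molecules of the WT CD8+ libraries were in library 6. The log2 difference of *C3* in edgeR, 3.23, ranged from 2.92 to 7.07 without 1 library. *Cfp*, with 1 molecule in CD8+ T cells, was 60.3-fold higher (10.8 to 2390), and *C3ar1*, with 3, was 51.6-fold higher (17.6 to 250). *C5ar1* was at 0 in all 6 WT CD8+ libraries and at least 16.9-fold higher in TAMs, taking 3 molecules over the group as the floor, while the interval used for the other genes starts at 13.6. When the log2 number of molecules entered the fit as a covariate, 5 of 8 differences passed and *C3*, *Cfb* and *Cfp* did not.

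In TAMs of placebo-treated *muMt*-/- mice, 2 of the 3 C1q chains were lower than in WT. The values that follow are normalized numbers, molecules divided by the size factor of the library. In *C1qb*, the B chain, they ranged from 352 to 471 (median 428) in WT, from 212 to 343 (median 278) in placebo-treated *muMt*-/- and from 141 to 367 (median 342) in GABA-treated *muMt*-/- TAMs. All 6 placebo-treated *muMt*-/- libraries lay below the lowest WT library, whereas the GABA-treated libraries overlapped both other groups, with library 1 the lowest of all 18. *C1qc*, the C chain, ranged from 328 to 466 (median 408) in WT, from 202 to 319 (median 286) in placebo-treated *muMt*-/- and from 203 to 422 (median 345) in GABA-treated *muMt*-/- TAMs. The WT and placebo-treated *muMt*-/- libraries did not overlap here either, and 4 of 6 GABA-treated libraries lay above the highest placebo-treated *muMt*-/- library. Such a separation without overlap was seen in the lower direction for 1.33% and in the higher direction for 1.15% of the 9469 genes tested.

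In the edgeR fit, *C1qb* fell by 0.62 on the log2 scale (SE 0.17, adjusted p = 0.0414) and *C1qc* fell by 0.57 (SE 0.16, adjusted p = 0.0483) in placebo-treated *muMt*-/- against WT TAMs. These were the 2 of 8 complement genes with adjusted p under 0.05, beside 2.05% of all genes tested, and 5 of 8 had an unadjusted p under 0.05, beside 1408 of 9469 genes. *C1qa*, the A chain, ranged from 275 to 400 (median 345) in WT, from 266 to 307 (median 276) in placebo-treated *muMt*-/- and from 269 to 330 (median 300) in GABA-treated *muMt*-/- TAMs. Its groups overlapped and its log2 difference from WT was -0.30 (SE 0.13, adjusted p = 0.278). Over the 8 genes 4 were higher and 4 lower, with a median log2 difference of -0.07 beside -0.05 over all genes. The calls for *C1qb* and *C1qc* lay close to the threshold. Without WT library 1, 2, 3, 4, 5 or 6, or *muMt*-/- library 2, 3 or 4, 0 genes passed, and without *muMt*-/- library 1 or 6 there was 1. Without *muMt*-/- library 5 there were 2, *C1qc* and *C3ar1*. Over these 12 fits the adjusted p ranged from 0.0404 to 0.126 for *C1qb* and from 0.0428 to 0.141 for *C1qc*, with log2 differences of -0.69 to -0.56 and -0.63 to -0.50.

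With depth as a covariate the log2 differences were -0.47 (adjusted p = 0.517) for *C1qb* and -0.36 (adjusted p = 0.61) for *C1qc*, and 11 genes in place of 194 passed in the whole table. With the replicate number as a block 0 complement genes passed, with log2 differences of -0.60 (adjusted p = 0.052) for *C1qb* and -0.56 (adjusted p = 0.0509) for *C1qc*, beside 201 genes in the whole table. With DESeq2 in place of edgeR *C1qb* and *C1qc* passed, as did *C3ar1* (adjusted p = 0.0171). The number of genes passing in the whole table with DESeq2 is not given here. Marker genes differed in the same comparison as well. Of 16 macrophage markers 2 were lower, *Trem2* (log2 -1.11, SE 0.24, adjusted p = 0.00828) and *Lyz2* (log2 -0.74, SE 0.19, adjusted p = 0.0241), and the list summed to medians of 12790, 10876 and 12088 CPM in WT, placebo-treated and GABA-treated *muMt*-/- TAMs. Of 5 monocyte markers 2 were higher, the chemokine receptor *Ccr2* (log2 0.84, SE 0.19, adjusted p = 0.0106) and *Plac8* (log2 0.90, SE 0.25, adjusted p = 0.0485). Of 6 epithelial and tumour markers *Cdh1* was higher (log2 1.11, SE 0.28, adjusted p = 0.0287), with *Epcam*, *Krt18*, *Krt19* and *Cldn4* at 0 in all TAM groups and median sums of 46.7, 80.1 and 57.5 CPM in the same order. The monocyte list had no gene at 0 and was led by *Ccr2*, and its sum had a median of 1646 CPM in WT (1485 to 1963), 3206 in placebo-treated *muMt*-/- (1463 to 3393) and 2285 in GABA-treated *muMt*-/- TAMs (1801 to 2479). Depth differed between these groups, so the fit with depth cannot fully tell depth and genotype apart. Whether a different mixture of cells in the sort has a part in the lower C1q was not tested. In such libraries fewer cells of a kind and less RNA per cell cannot be told apart.

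**Figure D1:**
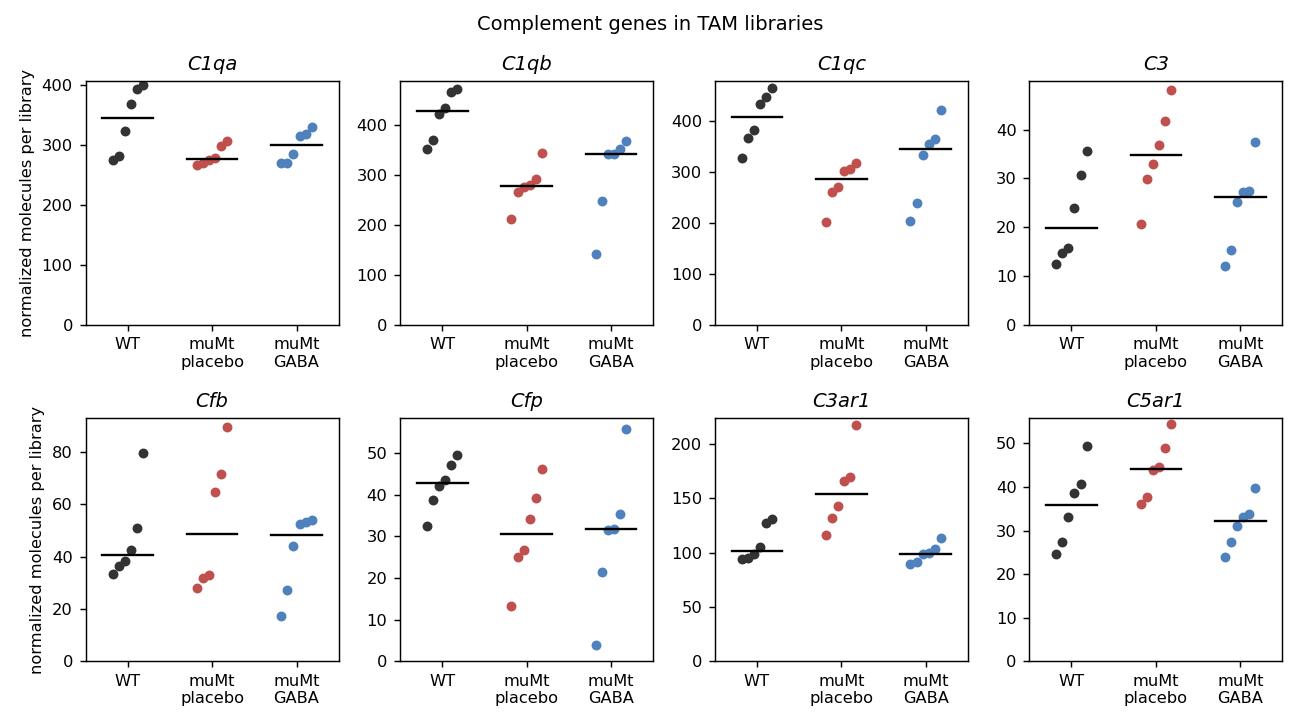
Normalized number of molecules per TAM library (points, 6 per group) with the group median (line) for the 8 complement genes, by group. For *C1qb* and *C1qc* the placebo-treated muMt points all lie below the WT points, and for *C3ar1* the GABA-treated points, 89.7 to 113, all lie below the placebo-treated muMt points, 116 to 218.

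The ratio between C1q chains also differed between libraries. The number of *C1qb* molecules per *C1qa* molecule in a library, which needs no normalization, ranged from 1.15 to 1.35 (median 1.22) in WT, from 0.691 to 1.15 (median 1.02) in placebo-treated *muMt*-/- and from 0.522 to 1.29 (median 1.06) in GABA-treated *muMt*-/- TAMs. In each *muMt*-/- group 5 of 6 libraries lay below the lowest WT library. For *C1qc* molecules per *C1qa* molecule, with medians of 1.18, 1.01 and 1.14 in WT, placebo-treated and GABA-treated *muMt*-/- TAMs, 4 of 6 and 2 of 6 did. The number of *C1qc* molecules per *C1qb* molecule had medians of 0.963, 0.974 and 1.04 in the same order, with overlapping ranges. The size of such a ratio also depends on how well each transcript is captured, so it is compared here between libraries only and without a test.

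The C1q genes lie side by side on chromosome 4 (GRCm38, RefSeq), *C1qb* at chr4:136880126-136886200, *C1qc* at chr4:136889801-136892936 and *C1qa* at chr4:136895916-136898844, with gaps of 3600 and 2979 bases and no overlapping gene. None of the other 5 genes overlapped a gene other than a microRNA, and *Cfb* (chr17:34856374-34862514) lay between *Nelfe* at a gap of 1 base and *C2* at 87 bases. A table of RefSeq promoter windows, 250 bases before to 50 bases after a start, held 6 of the 8 genes, without *C1qa* and *Cfb*. The windows of *C1qb* and *C1qc*, the pair that fell, and of *C3ar1* are shown 5′ to 3′ on the minus strand, at chr4:136886151-136886450, chr4:136892865-136893164 and chr6:122856108-122856407, with motif matches in capitals.
C1qb: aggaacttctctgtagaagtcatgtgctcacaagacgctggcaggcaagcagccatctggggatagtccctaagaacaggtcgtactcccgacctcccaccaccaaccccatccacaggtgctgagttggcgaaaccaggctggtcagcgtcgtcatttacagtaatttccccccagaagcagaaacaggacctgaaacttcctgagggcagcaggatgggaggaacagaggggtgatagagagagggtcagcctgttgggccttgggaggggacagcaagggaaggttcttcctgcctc
C1qc: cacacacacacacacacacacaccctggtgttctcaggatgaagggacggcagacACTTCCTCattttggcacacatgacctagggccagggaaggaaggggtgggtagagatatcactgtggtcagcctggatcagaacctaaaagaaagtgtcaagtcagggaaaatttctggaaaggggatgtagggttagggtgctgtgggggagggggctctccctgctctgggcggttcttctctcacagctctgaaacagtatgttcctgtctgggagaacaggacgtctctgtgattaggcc
C3ar1: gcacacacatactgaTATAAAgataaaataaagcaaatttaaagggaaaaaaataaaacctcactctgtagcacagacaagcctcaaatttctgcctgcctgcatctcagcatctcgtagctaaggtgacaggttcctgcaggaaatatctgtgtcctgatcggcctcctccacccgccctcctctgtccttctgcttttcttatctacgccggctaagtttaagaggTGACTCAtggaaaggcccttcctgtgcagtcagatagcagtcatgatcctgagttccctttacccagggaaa
Among the motifs searched on both strands were GAGGAAGT (PU.1), GGGANTTCC (NF-kB), TTCNNNGAA (STAT), TGANTCA (AP-1) and TATAAA (core promoter box). The *C1qb* window held none of them. *C1qc* held GAGGAAGT on the opposite strand, with its first base at position -195, a motif found in 3.20% of 32851 promoters. *C3ar1* held TGANTCA at -22 and TATAAA at -235, found in 7.81% and 13.6% of promoters, and the *C3* window (not shown) held TATAAA at 15, after the start. The shares of promoters with GGGANTTCC and TTCNNNGAA were 1.68% and 8.30%, and these were in no window of the 6 genes. A match describes the letters only.

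*C3*, the central component, and the alternative pathway genes did not pass in any TAM comparison. *C3* ranged from 12.4 to 35.6 (median 19.8) in WT, from 20.7 to 48.2 (median 34.9) in placebo-treated *muMt*-/- and from 11.9 to 37.4 (median 26.2) in GABA-treated *muMt*-/- TAMs. In placebo-treated *muMt*-/- mice 3 of 6 libraries lay above the highest WT library, and its log2 difference was 0.63 (SE 0.25, adjusted p = 0.194). In the study's own gene lists, made from these libraries, *C3* appears as a TNF target in TAMs, *Cfb* as a TNF target in CD8+ T cells and *C3ar1* as a changed gene in TAMs, so their directions are no independent evidence. Fibroblast markers also reached TAM libraries. All 7 were detected in each group with *Col3a1* leading, and their sum ranged from 88.8 to 5366 (median 402.7) CPM in WT, 56.2 to 2003 (median 466) in placebo-treated *muMt*-/- and 507 to 2620 (median 628) in GABA-treated *muMt*-/- TAMs. The sort was gated on CD45+ cells, and fibroblast markers were counted in the sorted libraries all the same. WT library 6 had the highest fibroblast sum and the highest *C3* of its group, whereas placebo-treated *muMt*-/- library 6 had the lowest sum (56.2 CPM) and the highest *C3* (48.2) of all 18 TAM libraries, and WT library 5 the lowest WT sum (88.8 CPM) with a *C3* of 30.8. What such RNA adds to *C3* was not tested.

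*Cfb*, the protease of the alternative C3 convertase, ranged from 33.2 to 79.7 (median 40.6) in WT, from 27.9 to 89.4 (median 48.8) in placebo-treated *muMt*-/- and from 17.3 to 54.1 (median 48.2) in GABA-treated *muMt*-/- TAMs. *Cfp*, which stabilizes that convertase, ranged from 32.4 to 49.6 (median 42.8), from 13.2 to 46.0 (median 30.5) and from 3.98 to 55.8 (median 31.7) in the same order. The ranges of all 3 groups overlapped for both genes. Their log2 differences between placebo-treated *muMt*-/- and WT TAMs were 0.16 (SE 0.26, adjusted p = 0.849) and -0.45 (SE 0.26, adjusted p = 0.441). Neither direction held throughout. *Cfb* ranged from -0.10 to 0.39 without 1 library, and *Cfp* was at 0.0022 with depth as a covariate. For *Cfp*, GABA-treated *muMt*-/- library 1 held 3 molecules, the fewest of any TAM library.

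The receptors had their highest medians in placebo-treated *muMt*-/- TAMs, without passing in edgeR with all libraries and the filter used throughout. *C3ar1*, the receptor for C3a, ranged from 94.1 to 131 (median 102) in WT, from 116 to 218 (median 154) in placebo-treated *muMt*-/- and from 89.7 to 113 (median 99.1) in GABA-treated *muMt*-/- TAMs. Of the placebo-treated *muMt*-/- libraries 5 of 6 lay above the highest WT library, and all 6 lay above every GABA-treated *muMt*-/- library, a separation seen for 0.317% of genes tested in the lower and 0.275% in the higher direction. Its log2 difference was 0.49 (SE 0.15, adjusted p = 0.0721) between placebo-treated *muMt*-/- and WT and -0.62 (SE 0.15, adjusted p = 0.132) between GABA-treated and placebo-treated *muMt*-/- TAMs, and neither passed. With DESeq2 the adjusted p values were 0.0171 and 0.00476, the latter the only complement gene to pass for GABA. In edgeR the former comparison gave 0.0261 with filterByExpr and 0.0358 without placebo-treated *muMt*-/- library 5, and its adjusted p ranged from 0.0358 to 0.258 with 1 library left out and from 0.0171 to 0.498 over the other settings. *C5ar1*, the receptor for C5a, ranged from 24.7 to 49.4 (median 35.95) in WT, from 36.1 to 54.4 (median 44.2) in placebo-treated *muMt*-/- and from 23.9 to 39.9 (median 32.2) in GABA-treated *muMt*-/- TAMs. Here 5 of 6 GABA-treated libraries lay below the lowest placebo-treated *muMt*-/- library, with a log2 difference of -0.43 (SE 0.19, adjusted p = 0.521). The placebo-treated *muMt*-/- group enters both comparisons, so an extreme group there moves both in opposite directions.

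With edgeR, 0 of 8 complement genes passed between GABA-treated and placebo-treated *muMt*-/- TAMs, beside 0.0211% of 9469 genes, and 2 (*C3ar1* and *C5ar1*) had an unadjusted p under 0.05, beside 801 genes. Of the 8 log2 differences 3 were above 0, those of the C1q chains at 0.11 (SE 0.13) for *C1qa*, 0.14 (SE 0.17) for *C1qb* and 0.24 (SE 0.16) for *C1qc*, and the median was -0.17 beside 0.06 over all genes. Without GABA-treated *muMt*-/- library 1 the count was 1, *C3ar1* with adjusted p = 0.0474, and without placebo-treated *muMt*-/- library 5 it was 1 as well, *C3ar1* with adjusted p = 0.0449. Its adjusted p ranged from 0.0449 to 0.38 over the 12 fits that leave out a library and from 0.00476 to 0.325 over the other settings.

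Between GABA-treated *muMt*-/- and WT TAMs, 0 of 8 genes passed in edgeR or DESeq2, beside 0.0739% of genes in edgeR. *C1qb* and *C1qc* had an unadjusted p under 0.05, beside 665 of 9469 genes. *C1qb* had a log2 difference of -0.48 (SE 0.17, adjusted p = 0.49), with 5 of 6 libraries below the lowest WT library, and *C1qc* one of -0.33 (SE 0.16, adjusted p = 0.705). *C3ar1* stood at -0.13 (SE 0.15) and *C5ar1* at -0.16 (SE 0.18). Over the 8 genes 7 differences were below 0, with a median of -0.18 beside 0.02 over all genes.

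**Figure D2:**
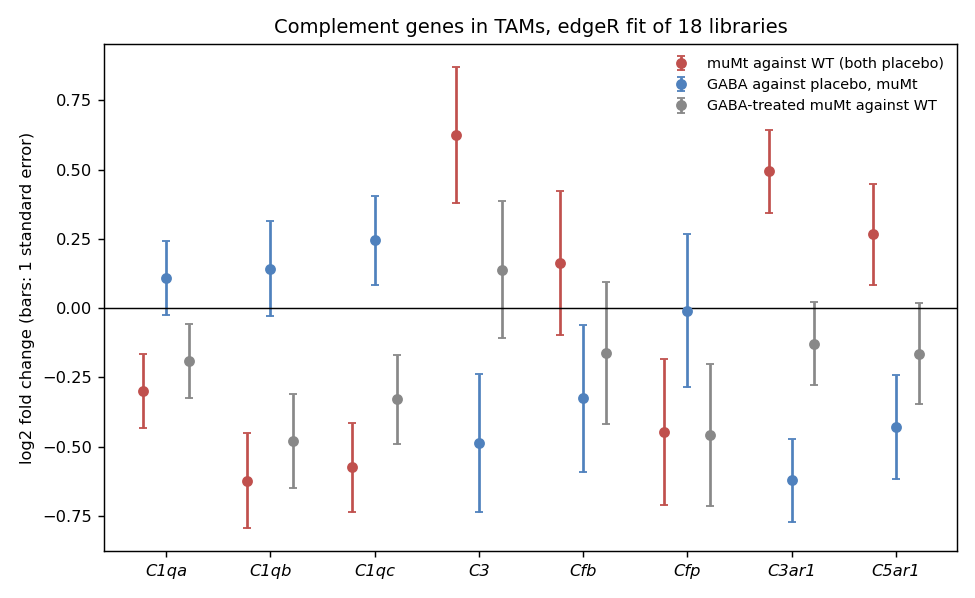
Log2 fold changes of the 8 complement genes in TAMs (points) with 1 standard error (bars) from the edgeR fit of 18 libraries, for 3 comparisons that share groups. In muMt against WT, *C1qb* (-0.62) and *C1qc* (-0.57) passed an adjusted p of 0.05 in this fit and were -0.47 and -0.36, without passing, with depth in the fit. *C3ar1* stood at 0.49 there and at -0.62 for GABA against placebo.

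Members varied together from mouse to mouse in part. Over the 18 TAM libraries, log2(normalized number + 1) was related for 28 pairs. Each two-sided test used 100000 permutations, with Benjamini-Hochberg adjustment over the 28 pairs. With Pearson's r 8 pairs passed, all positive, and with Spearman's rho 4 did. The share of pairs of other genes that would pass is not given here. The closest of 5302 genes outside the members reached r = 0.922 (*Grn* with *C1qb*) and 0.92 (*Rab5c* with *Cfp*). Relations of this size were thus not particular to complement genes. *C1qb* and *C1qc* went together most closely (r = 0.92, permutation p = 1e-05, the smallest possible, adjusted p = 0.00028; rho = 0.895, adjusted p = 0.00028). Leaving out the 2 libraries most distant from the *C1qb* median gave r = 0.901, and within groups r was 0.882. *C1qa* was related less closely to *C1qb* (r = 0.662, permutation p = 0.00323, adjusted p = 0.0181; rho = 0.692, permutation p = 0.00228, adjusted p = 0.016; r = 0.532 without the 2 farthest) and to *C1qc* (r = 0.675, permutation p = 0.00244, adjusted p = 0.0173; rho = 0.74, permutation p = 0.00067, adjusted p = 0.0084; r = 0.553 without the 2 farthest), with 0.471 and 0.478 within groups.

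*Cfp* went with C1q as well. Its relation to *C1qc* (r = 0.691, permutation p = 0.00071, adjusted p = 0.00994; rho = 0.738, permutation p = 0.0009, adjusted p = 0.0084) was 0.596 without placebo-treated *muMt*-/- library 4 and GABA-treated *muMt*-/- library 1. That to *C1qb* (r = 0.737, permutation p = 0.00247, adjusted p = 0.0173; rho = 0.571, permutation p = 0.0153, adjusted p = 0.0716) dropped to r = 0.374 (permutation p = 0.151) without the same 2 libraries and rests on them. In CPM the latter pair also passed with rho (rho = 0.645, permutation p = 0.00486, adjusted p = 0.0272), with r = 0.406 (permutation p = 0.117) without the 2 farthest. The alternative pathway pair *Cfb* and *Cfp* had r = 0.634 (permutation p = 0.00412, adjusted p = 0.0192) and rho = 0.492 (permutation p = 0.0402, adjusted p = 0.118), with r = 0.555 without the 2 farthest. *C3* and *Cfb* had r = 0.612 (permutation p = 0.00762, adjusted p = 0.0305) and rho = 0.511 (permutation p = 0.0319, adjusted p = 0.118), with r = 0.505. The receptors *C3ar1* and *C5ar1* had r = 0.595 (permutation p = 0.00922, adjusted p = 0.0323) and rho = 0.585 (permutation p = 0.0122, adjusted p = 0.0683), with r = 0.528 without the 2 farthest but 0.238 within groups. In CPM this pair passed with rho (rho = 0.612, permutation p = 0.0082, adjusted p = 0.0383) and not with r (r = 0.563, permutation p = 0.0157, adjusted p = 0.0548), which left 7 of 28 pairs by r. *C1qc* and *C3ar1* had r = -0.45 (permutation p = 0.0596, adjusted p = 0.152; rho = -0.49, permutation p = 0.0401, adjusted p = 0.118; r = -0.363 without the 2 farthest).

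Outside the members, the genes most like each in these 18 libraries were picked by Pearson's r among the 5302 genes averaging 5 or more normalized molecules, as a description without a test. *C1qb* was followed most closely by the lysosomal genes *Grn* (r = 0.922) and *Ctsa* (r = 0.913) and by *Cd300c2* (r = 0.918), and *C1qc* by *Cox5b* (r = 0.913), *Ctsa* (r = 0.897) and *Rpl15* (r = 0.885). For *C1qa* the closest were *Gm1821* (r = 0.751), *Cdc42* (r = 0.746) and *Clec4a2* (r = 0.705). *Cfp* went with *Rab5c* (r = 0.92), *Psap* (r = 0.912) and *Clcn7* (r = 0.9). *Cfb* was nearest to *Prdx5* (r = 0.918) and to *Ly6a* (r = 0.91) and *Ly6c2* (r = 0.909), surface proteins of the Ly6 family, and *C3* to *Mgst1* (r = 0.895), *Hbp1* (r = 0.806) and *Epb41* (r = 0.76). *C3ar1* went with *Rrbp1* (r = 0.829) and *Rgs2* (r = 0.827), and *C5ar1* with *Lrrc25* (r = 0.807), *Slamf7* (r = 0.804) and *Pik3cd* (r = 0.797).

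Most other complement genes did not reach the minimum for testing in TAMs. Of 47 other complement genes, 15 had a mean normalized number above 1 in TAMs, 4 of 15 classical and lectin genes, 0 of 1 alternative pathway gene, 0 of 7 terminal genes, 8 of 10 receptors and 3 of 14 regulators. Of these 15, 1 rose and 1 fell between WT and placebo-treated *muMt*-/- TAMs, beside 194 of 9469 genes called in all, and 0 passed in the other 2 TAM comparisons in edgeR. At an unadjusted p under 0.05 there were 3 of 15 for placebo-treated *muMt*-/- against WT, beside 1408 of 9469 genes, 3 for GABA against placebo, beside 801, and 0 for GABA-treated *muMt*-/- against WT, beside 665. *Itgam*, the alpha chain of complement receptor CR3 and part of the sorting gate as CD11b, ranged from 73.3 to 145 (median 92.9) in WT, from 133 to 197 (median 153) in placebo-treated *muMt*-/- and from 86.4 to 158 (median 118) in GABA-treated *muMt*-/- TAMs. It rose by 0.66 on the log2 scale (SE 0.17, adjusted p = 0.0277), although the groups overlapped. *C1qbp*, a mitochondrial protein that also binds C1q, ranged from 17.4 to 33.3 (median 20.1), from 6.97 to 14.9 (median 12.5) and from 10.6 to 31.6 (median 21.2) in the same order. It fell by 1.06 (SE 0.25, adjusted p = 0.0182), and all 6 placebo-treated *muMt*-/- libraries lay below the lowest WT library. Such a separation was seen in the lower direction for 1.33% of the 9469 genes tested. With depth as a covariate 11 genes in place of 194 passed in this comparison. Whether *Itgam* and *C1qbp* were among them is not given here.

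In each role the most abundant of the other genes in TAMs was *C4b* for the classical and lectin routes (mean 6.83), *Cfd* for the alternative pathway (0.05645), *C6* for the terminal pathway (0.357), *Calr* for the receptors (223) and *Cr1l*, the rodent regulator Crry, for the regulators (15.3). *Cfd* had 1 molecule and *C6* had 8, all in GABA-treated *muMt*-/- TAMs, and both were at 0 in every other group. *Calr* had log2 differences from WT of -0.27 (SE 0.19, adjusted p = 0.528) in placebo-treated and -0.16 (SE 0.18, adjusted p = 0.917) in GABA-treated *muMt*-/- TAMs. *C4b* stood at 0.28 (SE 0.44) and *Cr1l* at 0.24 (SE 0.23) in placebo-treated *muMt*-/- against WT TAMs. Between WT TAMs and WT CD8+ T cells 10 of the 12 other complement genes tested were higher in TAMs and 0 lower, beside 1420 higher and 508 lower among 8477 genes.

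In CD8+ T cells the complement genes were at low counts that differed widely between mice. The 3 C1q genes together had 0 to 11 molecules (median 2) per WT library, 2 to 65 (median 21.5) per placebo-treated *muMt*-/- library and 2 to 84 (median 12.5) per GABA-treated *muMt*-/- library. The highest were placebo-treated *muMt*-/- library 1 with 65 and GABA-treated *muMt*-/- libraries 1 and 3 with 65 and 84, and the groups overlapped. *Cfb* had 0 to 2, 1 to 11 and 1 to 12 molecules, *Cfp* 0 to 1, 1 to 6 and 0 to 7, *C3* 0 to 4, 0 to 10 and 0 to 13, and *C3ar1* 0 to 2, 0 to 22 and 0 to 11 per library in the same order. *C5ar1*, with 0, 5 and 13 molecules per group of 6, missed the minimum for testing, so 7 of the 8 genes were tested.

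None of the 7 passed in edgeR or DESeq2 in any of the 3 comparisons, and in edgeR 0% of 6663 genes passed in each. All 7 lay above WT in the CD8+ T cells of placebo-treated *muMt*-/- mice, by a median log2 difference of 2.36 beside 0.15 over all genes, and 6 of 7 had an unadjusted p under 0.05, beside 411 of 6663 genes. In WT only *C1qb* had a mean normalized number above 1, while the others had 0.19 to 0.94. These others met the minimum for testing through the *muMt*-/- groups. Their direction against WT and the contrast with all genes were therefore partly set by the filter. *Cfb* stood at 2.34 (SE 0.68, adjusted p = 0.336), *C1qb* at 2.23 (SE 0.69, adjusted p = 0.375) and *C3ar1* at 2.89 (SE 1.01, adjusted p = 0.538). With 1 library left out, these ranged from 2.0 to 2.8, from 1.6 to 2.7 and from 1.8 to 3.9 in that order. GABA-treated *muMt*-/- against WT gave a median of 2.35 beside 0.21, and again 6 of 7 at an unadjusted p under 0.05, beside 459 genes. The filter limits this comparison with WT in the same way. Between GABA-treated and placebo-treated *muMt*-/- mice the median was -0.23 beside 0.03, 0 of 7 had an unadjusted p under 0.05, and without placebo-treated *muMt*-/- library 1 the sign turned for 6 of 7 genes. Adding the genes with few molecules to the table let 4 genes pass for placebo-treated *muMt*-/- against WT, beside 72 genes in the whole table, and 3 for GABA-treated *muMt*-/- against WT, beside 64.

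Macrophage markers were set beside the complement genes across the CD8+ libraries. As a percentage of the median over the 18 TAM libraries, the sum of the 16 macrophage markers was 2.28 to 14.7% (median 4.93%) in WT, 9.58 to 41.5% (median 12.2%) in placebo-treated *muMt*-/- and 6.28 to 27.7% (median 17.5%) in GABA-treated *muMt*-/- CD8+ libraries, with *Ctsd* leading in WT and *Ctsb* in the others. On the same scale C1q was 0 to 4.04% (median 1.17%), 0.494 to 19.5% (median 5.86%) and 0.551 to 16.8% (median 3.57%). *Adgre1*, which encodes F4/80, *Mrc1* and *Mertk* had 0 molecules in WT, while none of the 16 was at 0 in the *muMt*-/- groups. Placebo-treated *muMt*-/- library 1, the highest in both measures, had 2031 CPM of T cell markers, the lowest of the 18 libraries, against medians of 5144, 4673 and 4713 in the 3 groups.

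Over the 18 CD8+ libraries, the C1q share of molecules was related on the log2 scale to the macrophage sum (r = 0.695, permutation p = 0.00128, adjusted p = 0.00283; rho = 0.761, permutation p = 0.00051, adjusted p = 0.00153), with r = 0.774 without the 2 libraries farthest in the macrophage sum and 0.568 within groups. Against the T cell sum it gave r = -0.687 (permutation p = 0.00189, adjusted p = 0.00283) and rho = -0.591 (permutation p = 0.0119, adjusted p = 0.0178), with r = -0.599 without the 2 farthest and -0.682 within groups. Against depth it gave r = 0.245 (permutation p = 0.321, adjusted p = 0.321) and rho = 0.203 (permutation p = 0.416, adjusted p = 0.416), with r = 0.228 without the 2 farthest and -0.142 within groups. These 3 relations were chosen after the values were seen. What macrophage RNA adds to the complement counts of these libraries was not tested.

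**Figure D3:**
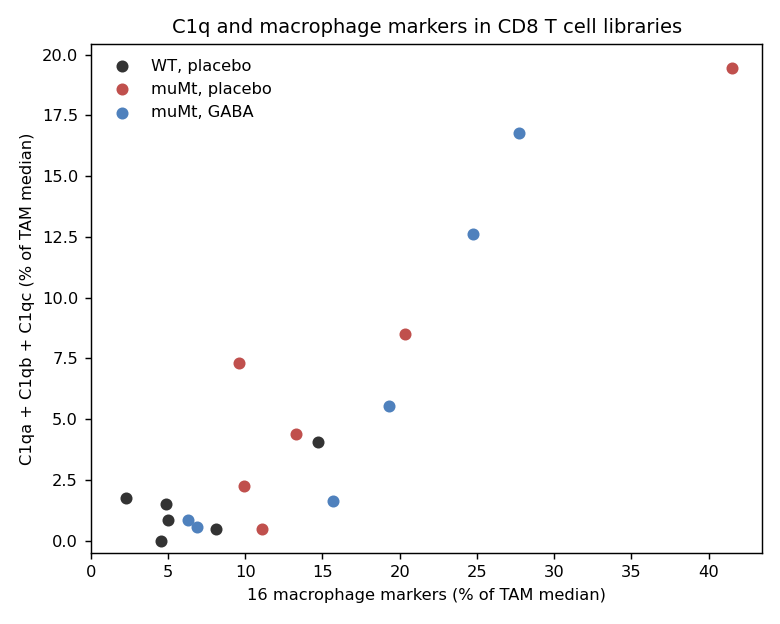
Summed C1q genes against the 16 macrophage markers in each CD8 T cell library (points, coloured by group), both as a percentage of the median over the 18 TAM libraries. The highest point is placebo-treated muMt library 1 at 41.5% and 19.5%, and 5 of 6 WT points lie below 10% on the marker axis.

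The responses of the 2 cell types were set against each other in a fit of all 36 libraries. For placebo-treated *muMt*-/- against WT, 0 of 8 genes differed between TAMs and CD8+ T cells with edgeR or DESeq2, beside 0.0118% of 8477 genes in edgeR, and 7 of 8 had an unadjusted p under 0.05, beside 853 genes. All 8 differences, TAM minus CD8+, were below 0, with a median of -2.84 beside -0.30 over all genes. Without *C5ar1*, which was at 0 in WT CD8+ T cells, the median was -2.75. Within cell types, 4 of 8 genes were higher and 4 lower than WT in TAMs, and all 7 tested were higher in CD8+ T cells. The pooled WT CD8+ libraries held 0 to 11 molecules per gene, so the shared sign rests on counts near the detection limit. The difference of *C1qb* was -2.92 (SE 0.69, adjusted p = 0.106) and that of *C1qc* -3.26 (SE 0.93, adjusted p = 0.217). Without WT CD8+ library 5, or without placebo-treated *muMt*-/- CD8+ library 2, 1 gene passed, *C1qb* with adjusted p = 0.0463 and 0.037. The adjusted p of *C1qb* ranged from 0.037 to 0.242 over the 24 fits that leave out a library and from 4.28e-07 to 0.842 over the other settings. For GABA against placebo in *muMt*-/- mice, 0 of 8 differed in edgeR, where 0% of 8477 genes passed, or in DESeq2, and 0 of 8 had an unadjusted p under 0.05 in edgeR. The median was -0.23, or -0.18 without *C5ar1*, beside 0.01 over all genes.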

How the data were processed

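Counts of distinct molecules per gene were made by the authors from 36 digital RNA-seq libraries with molecular barcodes (poly-T priming, template switching), with STAR 2.5.4b as aligner, mm10 as genome and refFlat for the genes, and deposited as whole numbers without normalization. All value columns matched a labelled library, with 0 left over. Genes with a mean DESeq2-normalized number (median-of-ratios size factors over 18 libraries) above 1 were tested with edgeR 4.0.16 (TMM, quasi-likelihood F-test, 1 coefficient per group) in R 4.3.3, by cell type over 18 libraries and across cell types over 36, with Benjamini-Hochberg adjustment over all genes and a threshold of 0.05. Relations used log2 values plus 1 and two-sided permutation tests (100000 permutations, Python 3.11.15, numpy 2.4.6, scipy 1.17.1).

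Levels between cell types are CPM (molecules per 1000000 of the library), with exact 95% intervals of pooled counts or a floor of 3 counts. Alternatives were DESeq2 1.42.0 with adjusted or unadjusted p, its size factors in edgeR, other filters, a robust fit, the compared groups alone, depth as a covariate, the replicate number as a block, CPM, and leaving out each library. The test was checked on simulated data. The text names all 8 members, other complement genes from a list of 47 that passed within a cell type or led their role in TAMs, and 3 genes most like each member, of which 1 is not reported here. Fibroblast, monocyte and other marker genes, and the CD8 relations, were named after their values were seen. Neutrophil, dendritic cell, endothelial and epithelial or tumour markers summed to medians of 45.2, 6.38, 13.7 and 46.7 CPM in WT TAMs and 123, 18.3, 27.9 and 80.1 in placebo-treated *muMt*-/- TAMs. The B cell list, led by *Blnk*, summed to 52.4 and 25.6. Members and lists were chosen with earlier results of these data known. Positions and promoters are from RefSeq (GRCm38.p6).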

Additional observations from a re-analysis of the deposited data

Results flagged for a closer look

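In 6 cases 1 library lay far from the other 5 of its group, by the gap to its nearest neighbour over the whole range of the group. All were CD8+ T cell libraries with few molecules of the gene. Among WT mice, library 5 had normalized numbers of 3.43 for *C1qa*, 2.29 for *C3ar1* and 1.14 for *Cfp*, and library 6 had 3.0045 for *C3*. Their nearest neighbours were at 0.751, 0.751, 0 and 0. Among placebo-treated *muMt*-/- mice, library 1 had 16.2 for *C1qa* and 22.2 for *C3ar1*, with the next libraries at 5.83 and 7.36. In all, 53 groups of 6 libraries were looked at. For continuous values, chance alone sets apart a library in about 1 in 20 groups. That rate does not hold for counts near 0. For *C3* and *Cfp* in WT mice the other 5 libraries were at 0, so any molecule in 1 library meets the rule.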

How the results depend on the processing

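Of 1619 values of single genes under other settings, 1518 kept both direction and side of the threshold, 28 lost and 43 gained a call, and 30 turned direction, 28 of these with 1 library left out. Of 48 group levels, 0 moved by 1 SD or more in CPM. The number of complement genes called in TAMs of placebo-treated *muMt*-/- against WT mice was 2. It was 3 with DESeq2 and with filterByExpr, which added *C3ar1* (adjusted p = 0.0171 and 0.0261), 5 with DESeq2 at an unadjusted p (1111 genes in all), 0 with depth as a covariate (11), and 0 to 2 without 1 library. For DESeq2 with adjusted p, filterByExpr and the fits without 1 library, the number of genes called in all is not given here. With the replicate number as a block the number of complement genes called was 0, with log2 differences of -0.60 (adjusted p = 0.052) for *C1qb* and -0.56 (adjusted p = 0.0509) for *C1qc*, while 201 genes were called in all. Profiles of equally numbered libraries correlated by -0.18 to 0.281 across the pairs of groups, and in no pair of groups were all of them above 0.1, so the numbers gave no sign of paired mice.

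For GABA against placebo in TAMs the count of 0 was 1 with DESeq2 (*C3ar1*, 60 genes called in all), 2 at its unadjusted p (580) and 0 to 1 without 1 library, and for GABA-treated *muMt*-/- against WT it was 2 at the unadjusted p (440). In CD8+ T cells the 0 genes for placebo-treated *muMt*-/- against WT became 4 at the unadjusted p (222 genes in all) and 4 without a filter (72), and for GABA-treated *muMt*-/- against WT 3 (222) and 3 (64), while filterByExpr left none of the 8 to test. Between WT TAMs and CD8+ T cells 5 of 8 passed with depth as a covariate (412 genes in all). For the difference between cell types in the placebo-treated *muMt*-/- response, 6 passed at the unadjusted p (600 genes in all), 5 without a filter (79), 2 in a fit of only the groups compared (13) and 0 to 1 without 1 library, and for GABA 1 passed at the unadjusted p (361).

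With depth as a covariate the log2 difference of *Cfp* in placebo-treated *muMt*-/- against WT TAMs was 0.0022 and that of *Cfb* in GABA-treated *muMt*-/- against WT TAMs 0.072. Without 1 library, direction turned in the following ranges. In TAMs, *Cfb* ranged from -0.10 to 0.39 in placebo-treated *muMt*-/- against WT, *Cfp* from -0.28 to 0.18 for GABA against placebo, and *C3* from -0.039 to 0.30 and *Cfb* from -0.26 to 0.066 in GABA-treated *muMt*-/- against WT. For GABA against placebo in CD8+ T cells, *C1qb* ranged from -0.98 to 0.28, *C1qc* from -1.07 to 0.25, *C3* from -0.98 to 0.53, *C3ar1* from -0.80 to 0.63, *Cfb* from -0.37 to 0.27 and *Cfp* from -0.83 to 0.037. In the difference of this response between cell types, *C1qb* ranged from -0.18 to 1.04, *C1qc* from -0.050 to 1.24, *C3* from -1.07 to 0.47, *C3ar1* from -1.30 to 0.13, *Cfb* from -0.63 to 0.0010 and *Cfp* from -0.084 to 0.79. The cause of these turns was not tested. In CD8+ T cells a WT library held 0 to 11 C1q molecules, which limits the precision of these results.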
